A study of Homo sapiens with 6 samples.

Results

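The genes described here encode the machinery that copies the genome and the factors that carry a cell from G1 into S phase. They are 60 genes chosen by name from the 58735 genes of the count table, covering origin licensing, the replicative helicase, the polymerases, the sliding clamp and its loader, the G1/S cyclins and E2F factors, and proteins that travel with the fork. Their RNA was measured by RNA sequencing in HuCCT1, an established human cholangiocarcinoma (bile duct cancer) cell line. The siC1QBP group holds 3 libraries from cells treated with a small interfering RNA (siRNA) that targets C1QBP, which encodes a largely mitochondrial protein, and the siNC group holds 3 libraries from cells given a control siRNA. Both groups are the same line, with no labelled dose, time after transfection or separate culture per replicate, so p-values measure only the spread between these libraries, which may be technical. The study's title concerns C1QBP in cholangiocarcinoma proliferation, and the comparison asks whether replication and G1/S transcripts differ when C1QBP is silenced.

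Before S phase, the origin recognition complex marks origins, and CDC6 and CDT1 load the MCM2 to MCM7 helicase onto them. Cyclin-dependent kinases then switch the helicase on together with CDC45 and the GINS complex, and polymerases alpha, delta and epsilon copy the strands with the PCNA clamp. Many of these genes are transcribed by E2F factors once cyclin D and cyclin E kinases have inactivated the retinoblastoma protein, so their RNA is commonly read as a sign of cycling cells.

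The libraries held 17122252 to 18847340 counts in siC1QBP and 18313264 to 20416243 counts in siNC. C1QBP, the siRNA target, had 59.1, 57.6 and 60.01 CPM (read counts relative to library size, with sizes scaled by the TMM method) in siC1QBP libraries, against 175, 181 and 185 CPM in siNC libraries. Of 8 markers of biliary epithelium, 7 were above 1 CPM in all 6 libraries, among them KRT7, KRT19 and EPCAM, and SPP1 was at or under 1 CPM in all 6. The 4 hepatocyte markers and the 3 immune markers were at or under 1 CPM throughout, and COL1A1 was the one of 4 fibroblast markers above 1 CPM in every library. The 4 fibroblast markers together held 37.0 to 41.6 CPM in siC1QBP and 27.7 to 31.8 CPM in siNC, and the 3 endothelial markers 3.05 to 3.95 CPM in siC1QBP and 2.47 to 3.70 CPM in siNC. The 8 biliary markers held 5185 to 5304 CPM in siC1QBP and 5893 to 6216 CPM in siNC, a sum made up mostly of KRT7 and KRT19, which were called lower (log2 fold changes -0.26 and -0.19). Among the others, MUC1 and CFTR were called higher (0.61 and 0.47; edgeR adjusted p = 0.00136 and 0.00192), and EPCAM and SOX9 were not called (-0.04 and 0.14). The part of these lists in the results was not tested. Replicate 1 of each group stood apart from the other two of its group. In siC1QBP, the chi-square per degree of freedom over genes was 6.66 and 6.77 between replicate 1 and the others, and 2.09 between replicates 2 and 3. In siNC it was 3.67 and 3.40, and 2.13. Mitochondrially encoded genes took 4.20% to 4.80% of counts in siC1QBP and 3.66% to 3.88% in siNC. With those genes left out, 16 members were still called lower, when 8.15% of all tested genes were.

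Among the replication and G1/S genes, 16 fell in siC1QBP cells and 44 were not called, and the fallen ones included 4 helicase subunits, the PCNA clamp, 2 subunits of RPA and cyclin D1. All 60 members passed the low-count filter and were tested, and 16 were called lower and 0 higher (edgeR's quasi-likelihood test, Benjamini-Hochberg adjusted p under 0.05 over 15530 genes). Lower calls were 26.7% of the members and 7.84% of all tested genes, and higher calls were 0% of the members and 6.47% of all tested genes. At an unadjusted p under 0.05, 25 members were lower and 2 higher, where 2373 of all 15530 tested genes were lower and 2126 higher. DESeq2 and limma-voom also called 0 members higher. The median log2 fold change, siC1QBP over siNC, was -0.10 for the members and 0.00255 for all tested genes, and 49 members had a negative value and 11 a positive one. The called members ranged from 73.1% to 90.4% of their siNC level. In bulk RNA, a smaller share of cells in S phase and less of these transcripts per cell cannot be told apart.

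The groups separated in 29 members. All 3 siC1QBP libraries lay below all 3 siNC libraries in 25 members (16.6% of all tested genes), and above them in 4, ORC1, GINS3, POLA2 and TIMELESS (16% of all tested genes). Summed over the 60 members, the siC1QBP libraries held 5047, 5021 and 4998 CPM and the siNC libraries 5538, 5655 and 5577 CPM, so the sums did not overlap. Without CCND1, the most abundant member, the sums were 4173, 4245 and 4209.8 CPM in siC1QBP and 4543, 4646 and 4598 CPM in siNC. Leaving out siNC replicate 2 gave 6 members called lower, against 3.64% of all tested genes, and leaving out siNC replicate 3 gave 9, against 3.87%. With replicates 2 and 3 of both groups alone, a choice made after seeing the data, 21 members were called lower, against 12.1% of all tested genes.

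**Figure D1:**
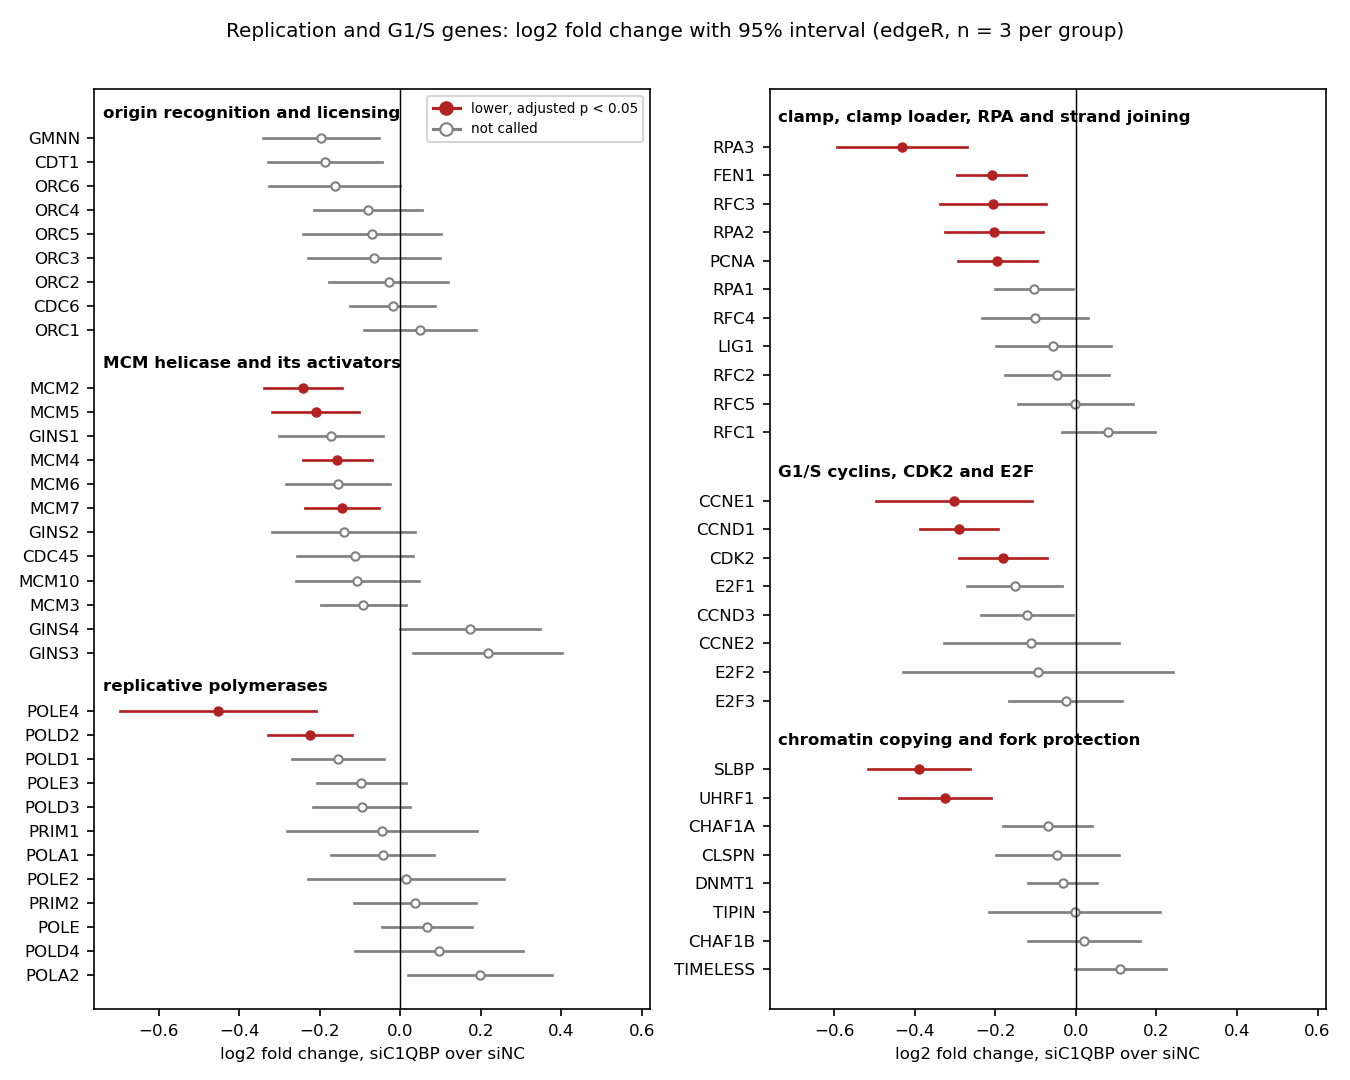
Log2 fold change of each of the 60 members, siC1QBP over siNC, with its 95% interval (horizontal axis, log2 scale; n = 3 libraries per group), grouped by role. Filled red points are the 16 members called lower, and open grey points are the 44 that were not called. The red points lie between -0.45 and -0.15, and the highest point is GINS3 at 0.22.

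Members of one pathway that move together are often discussed through shared promoter words, so the promoters of the called members are shown here. RefSeq promoters (GRCh38.p14) were matched by symbol for 51 members, and those of MCM4, MCM5, GINS4, POLD3, RPA2, RPA3, CCNE2, CDK2 and CCND1 were not used here. The stretches below are the 120 bases before the RefSeq start, 5′ to 3′ on the gene's strand, of the 6 members with the smallest p that were called lower and had an entry. The start used was the RefSeq one nearest the gene's 5′ end in the count table, and the 2 can differ. The UHRF1 stretch ends at 4909500, where the count table begins the gene at 4903080. The POLD2 stretch, on the minus strand, ends at 44123549, where the count table begins the gene at 44124358. Capitals mark the word TTCCCGC, the variant written TTCGCGC, the variant written TTGCCGC and the variant written TTGGCGC, on either strand, which are forms of the site that E2F factors bind.
SLBP (chr4:1712320-1712439, minus strand): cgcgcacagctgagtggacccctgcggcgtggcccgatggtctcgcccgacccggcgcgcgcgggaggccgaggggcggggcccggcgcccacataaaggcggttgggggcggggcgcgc
UHRF1 (chr19:4909381-4909500, plus strand): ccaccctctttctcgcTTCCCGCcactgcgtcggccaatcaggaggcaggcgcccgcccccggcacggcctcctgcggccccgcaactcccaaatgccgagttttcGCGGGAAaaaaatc
MCM2 (chr3:127598291-127598410, plus strand): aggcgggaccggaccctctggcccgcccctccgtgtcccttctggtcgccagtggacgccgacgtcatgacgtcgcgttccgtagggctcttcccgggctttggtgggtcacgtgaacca
FEN1 (chr11:61792791-61792910, plus strand): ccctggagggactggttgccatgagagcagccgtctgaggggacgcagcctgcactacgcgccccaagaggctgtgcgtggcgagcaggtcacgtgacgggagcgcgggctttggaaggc
POLD2 (chr7:44123549-44123668, minus strand): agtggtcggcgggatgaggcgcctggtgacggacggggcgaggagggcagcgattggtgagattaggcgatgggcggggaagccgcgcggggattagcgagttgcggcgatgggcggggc
PCNA (chr20:5126623-5126742, minus strand): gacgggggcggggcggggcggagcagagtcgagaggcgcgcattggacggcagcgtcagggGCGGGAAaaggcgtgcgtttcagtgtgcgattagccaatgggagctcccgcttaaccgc

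The UHRF1 stretch held 2 such words, the PCNA stretch 1, and the other 4 stretches 0. In the full window of 250 bases before and 50 after the start, MCM2 held 2 overlapping words just after its start. MCM7, POLE4 and RFC3, which were also called lower, held words 5 to 187, 31 and 55 bases before their starts. With 1 promoter a gene, 34 of the 51 members held at least 1 word (66.7%), against 20.4% of 10626 tested genes and 13% of all 35116 promoters in the table. Among the members, 6 of the 10 called lower held one (60%) and 28 of the 41 not called (68.3%). Words on opposite strands that overlap, such as TTCGCGC and the word that is its reverse complement, were counted apart. A match is a run of letters and not a measured binding site.

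The genes that mark and license origins were not called, and 8 of the 9 had a negative log2 fold change. Of 9 members, 0 were called lower or higher by edgeR, DESeq2 or limma-voom, and the median log2 fold change in edgeR was -0.07. At an unadjusted p under 0.05 in edgeR, 3 were lower and 0 higher. Of all 15530 tested genes, 2373 were lower and 2126 higher at that threshold. CDT1, which loads the helicase, had 37.8, 44.4 and 40.7 CPM in siC1QBP libraries, against 46.1, 47.5 and 46.4 CPM in siNC libraries. GMNN encodes geminin, the inhibitor of CDT1, and had 43.9, 50.1 and 43.2 CPM in siC1QBP libraries, against 55.5, 50.7 and 51.1 CPM in siNC libraries. The loader and its inhibitor thus had similar log2 fold changes, -0.19 (95% interval -0.33 to -0.05; edgeR adjusted p = 0.0703) for CDT1 and -0.20 (-0.34 to -0.05; edgeR adjusted p = 0.0625) for GMNN. Both were called lower without siC1QBP replicate 2 (edgeR adjusted p = 0.0366 for CDT1 and 0.0240 for GMNN). CDC6, the partner of CDT1 in loading, averaged 134 ± 5.57 CPM in siC1QBP and 135 ± 6.16 CPM in siNC (SD, n = 3 each), and its interval for the log2 fold change ran from -0.12 to 0.09. The 6 subunits of the origin recognition complex, ORC1 to ORC6, had log2 fold changes of -0.16 to 0.05. ORC6 was the lowest of them, averaging 27.5 ± 2.45 CPM in siC1QBP and 30.8 ± 0.298 CPM in siNC (edgeR adjusted p = 0.168). ORC1 was the highest, averaging 34.1 ± 1.23 CPM in siC1QBP and 32.9 ± 0.241 CPM in siNC, and while its libraries did not overlap, its edgeR adjusted p was 0.673.

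Of the 6 subunits of the helicase ring, 4 were called lower (66.7%, against 7.84% of all tested genes). MCM2 (chromosome 3, 127598223 to 127622436, plus strand) had 161, 149.7 and 151 CPM in siC1QBP libraries, against 177, 186 and 182 CPM in siNC libraries. It had a log2 fold change of -0.24 (SE 0.05; edgeR adjusted p = 0.00218), and every siC1QBP library lay below every siNC library. MCM5 (chromosome 22, 35400063 to 35425430, plus strand), which sits next to MCM2 in the ring, had 96.8, 101 and 95.6 CPM in siC1QBP libraries, against 109, 119.5 and 111 CPM in siNC libraries. MCM4 (chromosome 8, 47960185 to 47978160, plus strand) had 300.2, 291 and 286 CPM in siC1QBP libraries, against 325, 327 and 326 CPM in siNC libraries. The siNC libraries of MCM4 agreed within 1.48 CPM (SD), and those of siC1QBP within 7.27 CPM. MCM7 (chromosome 7, 100092728 to 100101940, minus strand) had 227, 233 and 239.5 CPM in siC1QBP libraries, against 249, 264 and 261 CPM in siNC libraries. The log2 fold changes of MCM5, MCM4 and MCM7 were -0.21, -0.16 and -0.15 (SE 0.05, 0.04 and 0.04; edgeR adjusted p = 0.0108, 0.0153 and 0.0329). Only MCM2 among these 4 kept its call under all 18 alternatives. Without siNC replicate 2 the other three lost theirs (edgeR adjusted p = 0.0883, 0.0765 and 0.153), MCM4 and MCM7 also without siNC replicate 3 (0.0744 and 0.139) or siC1QBP replicate 2 (0.0508 and 0.0823), and MCM4 also without siC1QBP replicate 3 (0.0735).

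MCM7 shares 392 of its 4386 exonic bases with the opposite-strand gene AP4M1, and MCM2 shares 45 with TPRA1. MCM6 and MCM3, the remaining subunits of the ring, were not called. MCM6 had 91.0, 84.2 and 83.7 CPM in siC1QBP libraries, against 104, 96.0 and 88.4 CPM in siNC libraries, and its groups overlapped (log2 fold change -0.16; edgeR adjusted p = 0.1004). Without siC1QBP replicate 1 MCM6 was called lower (edgeR adjusted p = 0.0213). MCM3 averaged 148 ± 6.47 CPM in siC1QBP and 158 ± 7.99 CPM in siNC, a log2 fold change of -0.09. Summed over the 6 subunits, the siC1QBP libraries held 1019, 1005 and 1011 CPM and the siNC libraries 1116, 1148 and 1136 CPM. Per kilobase of exonic length, siNC levels of the subunits ran from 15.4 CPM per kilobase for MCM5 to 58.8 for MCM7.

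The 6 helicase activators had log2 fold changes of both signs, and 0 were called by edgeR, DESeq2 or limma-voom. At an unadjusted p under 0.05 in edgeR, 1 was lower, GINS1, and 1 higher, GINS3. At that threshold 2373 of all 15530 tested genes were lower and 2126 higher. GINS1 and GINS2, subunits of the GINS complex, had log2 fold changes of -0.17 (95% interval -0.30 to -0.04) and -0.14 (-0.32 to 0.04). GINS3 and GINS4, the other subunits of the same complex, had 0.22 (0.03 to 0.40) and 0.17 (edgeR adjusted p = 0.175). GINS1 had 44.1, 46.6 and 47.2 CPM in siC1QBP libraries, against 54.1, 51.9 and 49.4 CPM in siNC libraries, with no overlap. GINS3 had 19.0, 20.6 and 21.6 CPM in siC1QBP libraries, against 17.8, 18.4 and 16.4 CPM in siNC libraries, also with no overlap and in the opposite direction. The edgeR adjusted p was 0.0685 for GINS1 and 0.110 for GINS3, and the difference between subunits was not tested. GINS1 was called lower with the replicate block (edgeR adjusted p = 0.0469). CDC45, which joins GINS and the ring, averaged 41.0 ± 2.32 CPM in siC1QBP and 44.4 ± 2.75 CPM in siNC. MCM10, which helps start unwinding, averaged 29.1 ± 1.85 CPM in siC1QBP and 31.3 ± 0.953 CPM in siNC, and neither was called (edgeR adjusted p = 0.293 and 0.360).

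Among the 12 polymerase and primase genes, 2 accessory subunits fell (16.7%, against 7.84% of all tested genes called lower) and the others were not called. Without siNC replicate 2, 0 of the 12 were called lower, when 3.64% of all tested genes were. DESeq2 called 1 of the 12 lower (7.05% of all tested genes), and without siNC replicate 3 the count was also 1 (3.87%). POLD2 (chromosome 7, 44114681 to 44124358, minus strand), a regulatory subunit of the lagging-strand polymerase delta, had 196, 188 and 187 CPM in siC1QBP libraries, against 207, 234 and 227 CPM in siNC libraries. It had a log2 fold change of -0.22 (SE 0.05; edgeR adjusted p = 0.00555; 0.0560 without siNC replicate 2). POLE4 (chromosome 2, 74958492 to 74970128, plus strand), a small histone-fold subunit of the leading-strand polymerase epsilon, had 24.6, 36.8 and 33.6 CPM in siC1QBP libraries, against 37.2, 44.5 and 48.1 CPM in siNC libraries. POLE4 had the lowest log2 fold change of all members, -0.45 (SE 0.12; edgeR adjusted p = 0.0145), with siC1QBP replicate 1 well below replicates 2 and 3 and siC1QBP replicate 2 only just below siNC replicate 1. The POLE4 call was lost by DESeq2 (adjusted p = 0.120) and without siNC replicate 2 or 3 (edgeR adjusted p = 0.0726 and 0.0929).

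The catalytic subunits of the 3 replicative polymerases were not called. POLD1, the catalytic subunit of polymerase delta, came nearest, with 59.1, 63.1 and 62.1 CPM in siC1QBP libraries, against 66.8, 69.0 and 69.4 CPM in siNC libraries. Its log2 fold change was -0.16 (edgeR adjusted p = 0.0643), and its groups did not overlap. POLD1 was called lower with the replicate block (edgeR adjusted p = 0.0333) and with replicates 2 and 3 alone (0.0492). POLE averaged 86.2 ± 1.66 CPM in siC1QBP and 82.4 ± 4.03 CPM in siNC, and POLA1 averaged 49.6 ± 2.86 CPM in siC1QBP and 51.2 ± 1.23 CPM in siNC. POLE3, the histone-fold partner of POLE4, had a log2 fold change of -0.10 (95% interval -0.21 to 0.01), so the fitted values of these partners differed, but their difference was not tested. POLA2, the second subunit of polymerase alpha, had a positive value, 0.20 (0.02 to 0.38; edgeR adjusted p = 0.132), with 20.3, 22.1 and 20.1 CPM in siC1QBP libraries, against 17.5, 17.6 and 19.4 CPM in siNC libraries. POLA2 shares 2012 of its 5726 exonic bases with the same-strand gene AP000944.2, so its value is uncertain. POLD3, POLD4, POLE2 and the primase genes PRIM1 and PRIM2 had log2 fold changes of -0.10 to 0.10 and edgeR adjusted p of 0.287 or higher.

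Of the 11 genes of the clamp, its loader, RPA and strand joining, 5 were called lower (45.5%, against 7.84% of all tested genes). That count was 2 with the length trend removed (7.88% of all tested genes) and 2 without siNC replicate 2 (3.64%). It was 3 without siNC replicate 3 (3.87% of all tested genes) and 3 without siC1QBP replicate 3 (6.26%). PCNA (chromosome 20, 5114953 to 5126626, minus strand), the sliding clamp, had 166, 183 and 182 CPM in siC1QBP libraries, against 202, 205 and 202 CPM in siNC libraries. It had a log2 fold change of -0.20 (SE 0.05; edgeR adjusted p = 0.00948), and the call was lost without siNC replicate 2 (0.0577). FEN1 (chromosome 11, 61792637 to 61797244, plus strand), the nuclease that trims Okazaki fragment flaps, had 228, 232 and 232 CPM in siC1QBP libraries, against 270.1, 266 and 263 CPM in siNC libraries. FEN1 separated clearly, with SDs of 2.28 CPM in siC1QBP and 3.36 CPM in siNC around means of 231 CPM in siC1QBP and 267 CPM in siNC (log2 fold change -0.21, SE 0.04; edgeR adjusted p = 0.00246). LIG1, the ligase that seals the trimmed fragments, averaged 46.0 ± 4.07 CPM in siC1QBP and 47.8 ± 1.45 CPM in siNC and was not called (edgeR adjusted p = 0.639). FEN1 shares 166 exonic bases with the opposite-strand gene TMEM258 and 49 with the same-strand gene FADS2, and the strand setting of the counting is not given in the sources used here.

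Of the 3 subunits of RPA, the single-strand binding complex, 2 were called lower, where 7.84% of all tested genes were. In all 3 the siC1QBP libraries lay below the siNC libraries, as they did in 16.6% of all tested genes. RPA3 (chromosome 7, 7636518 to 7718607, minus strand), the smallest subunit, had 35.7, 44.7 and 43.1 CPM in siC1QBP libraries, against 53.5, 58.7 and 54.3 CPM in siNC libraries. That was a log2 fold change of -0.43 (SE 0.08; edgeR adjusted p = 0.00136), and RPA3 kept its call under all 18 alternatives. RPA2 (chromosome 1, 27891524 to 27914746, minus strand) had 50.5, 53.5 and 50.9 CPM in siC1QBP libraries, against 57.4, 58.8 and 62.1 CPM in siNC libraries (log2 fold change -0.20, SE 0.06; edgeR adjusted p = 0.0253). RPA2 was not called without siC1QBP replicate 3 (edgeR adjusted p = 0.0802) and without siNC replicate 2 (0.0759) or 3 (0.135). RPA1, the largest subunit, had 149.8, 138 and 143 CPM in siC1QBP libraries, against 154, 155 and 154 CPM in siNC libraries. Its groups did not overlap, but its log2 fold change of -0.10 was not called (edgeR adjusted p = 0.139), and without siC1QBP replicate 1 it was (0.0257). RPA3 shares 118 exonic bases with the opposite-strand gene UMAD1, which held 252 counts per library on average against 899 for RPA3.

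Of the 5 clamp loader genes, RFC3 alone was called, where 7.84% of all tested genes were called lower. RFC3 (chromosome 13, 33818049 to 33966558, plus strand) had 43.1, 48.4 and 46.4 CPM in siC1QBP libraries, against 50.7, 53.2 and 55.1 CPM in siNC libraries (log2 fold change -0.21, SE 0.06; edgeR adjusted p = 0.0362). It kept the call under 10 of 18 alternatives and lost it without siC1QBP replicate 1 (0.0733) or 3 (0.0747) and without siNC replicate 2 (0.114) or 3 (0.158). RFC1, RFC2, RFC4 and RFC5 had log2 fold changes of -0.10 to 0.08, and their groups overlapped.

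**Figure D2:**
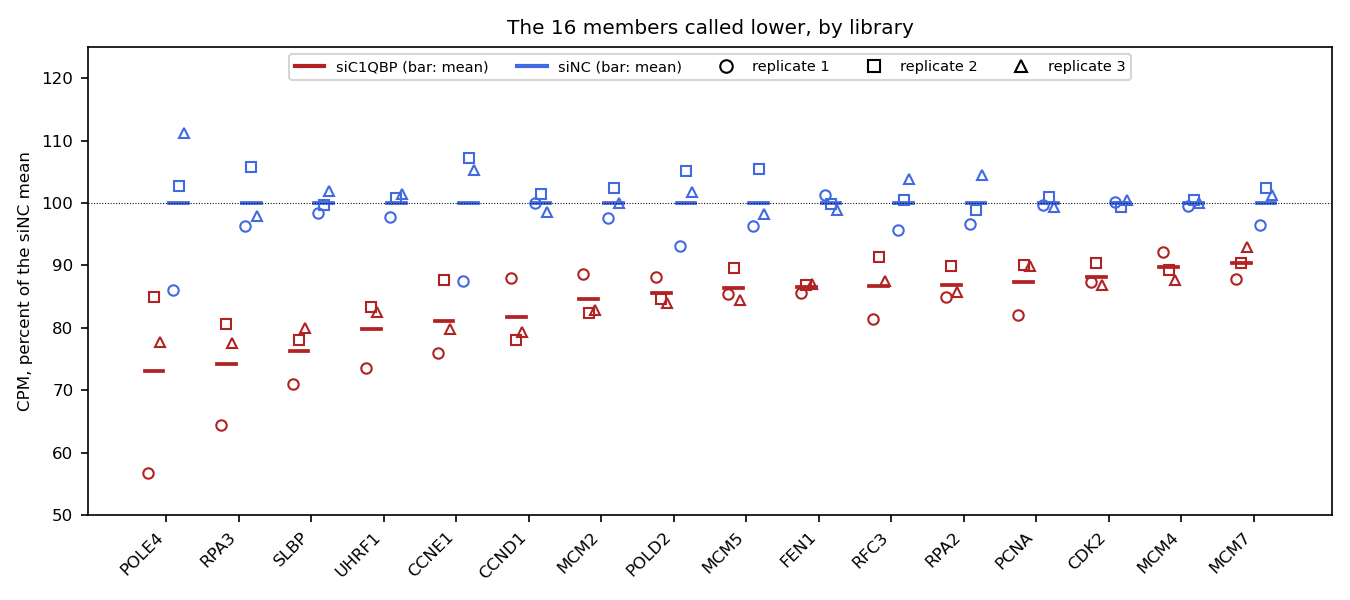
CPM of the 16 members called lower in each library, as a percent of the gene's siNC mean (vertical axis, which does not start at 0), with siC1QBP in red at the left of each gene and siNC in blue at the right; short lines are means of 3 libraries and symbols are replicates. The groups overlap in CCNE1 alone, and siC1QBP replicate 1 is the lowest siC1QBP library in 10 of the 16 genes.

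Of the 8 G1/S cyclin, CDK2 and E2F members, 3 fell (37.5%, against 7.84% of all tested genes called lower). They were CCND1 and CCNE1, whose cyclins drive the kinases of the G1/S transition, and CDK2, the kinase partner of cyclin E. CCND1 (chromosome 11, 69641087 to 69654474, plus strand), the cyclin that joins growth signals to CDK4 and CDK6, was the most abundant member by CPM and per kilobase. It had 874, 775 and 788 CPM in siC1QBP libraries, against 994, 1009 and 979 CPM in siNC libraries. CCND1 shares 497 of its 4830 exonic bases with the opposite-strand gene LTO1. Every siC1QBP library was below every siNC library, with a log2 fold change of -0.29 (SE 0.05; edgeR adjusted p = 0.000540). CCND3, the related cyclin D3, averaged 100.2 ± 3.86 CPM in siC1QBP and 109 ± 6.54 CPM in siNC and was not called (log2 fold change -0.12, edgeR adjusted p = 0.149). With replicates 2 and 3 alone CCND3 was called lower (edgeR adjusted p = 0.0328). CCNE1 (chromosome 19, 29811898 to 29824308, plus strand), which activates CDK2, had 19.5, 22.5 and 20.5 CPM in siC1QBP libraries, against 22.5, 27.5 and 27.0 CPM in siNC libraries. CCNE1 was the one called member whose groups overlapped, at siNC replicate 1 (log2 fold change -0.30, SE 0.09; edgeR adjusted p = 0.0343). It kept the call under 10 of 18 alternatives and lost it without siC1QBP replicate 1 (0.0652) or 3 (0.0870) and without siNC replicate 2 (0.164) or 3 (0.141). CCNE2, the second cyclin E, had 15.1, 13.3 and 12.1 CPM in siC1QBP libraries, against 14.2, 14.9 and 14.5 CPM in siNC libraries, and it shares 1629 exonic bases with the opposite-strand gene INTS8, so its value is uncertain.

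CDK2 (chromosome 12, 55966769 to 55972784, plus strand), the kinase that cyclin E activates, had 63.8, 66.1 and 63.4 CPM in siC1QBP libraries, against 73.2, 72.5 and 73.4 CPM in siNC libraries. It had a log2 fold change of -0.18 (SE 0.05; edgeR adjusted p = 0.0259), and it was not called without siC1QBP replicate 3 (0.0915) and without siNC replicate 2 (0.0818) or 3 (0.0972). The activating E2F factors were not called. E2F1, itself an E2F-driven gene, had 81.5, 84.8 and 86.2 CPM in siC1QBP libraries, against 88.3, 100.4 and 91.8 CPM in siNC libraries, with no overlap (log2 fold change -0.15; edgeR adjusted p = 0.0800), and without siNC replicate 1 it was called lower (0.0410). E2F2 and E2F3 had log2 fold changes of -0.09 (95% interval -0.43 to 0.24) and -0.03 (-0.17 to 0.11), and E2F2, averaging 6.11 ± 0.745 CPM in siC1QBP and 6.51 ± 1.14 CPM in siNC, was the faintest member.

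Of the 8 genes that copy chromatin marks and protect the fork, 2 fell (25%, against 7.84% of all tested genes called lower) and 6 were not called. SLBP (chromosome 4, 1692800 to 1712555, minus strand), which binds the stem-loop of histone mRNAs made in S phase, had 46.0, 50.6 and 51.8 CPM in siC1QBP libraries, against 63.8, 64.6 and 66.0 CPM in siNC libraries. SLBP had the smallest p of the members, with a log2 fold change of -0.39 (SE 0.06; edgeR adjusted p = 0.000417); the gap between the groups was wider than the range within either. UHRF1 (chromosome 19, 4903080 to 4962154, plus strand), which brings the maintenance DNA methyltransferase to newly copied DNA, had 85.6, 97.1 and 96.0 CPM in siC1QBP libraries, against 114, 117 and 118 CPM in siNC libraries (log2 fold change -0.33, SE 0.05; edgeR adjusted p = 0.000843). DNMT1, the methyltransferase that UHRF1 recruits, had 241, 236 and 234 CPM in siC1QBP libraries, against 241, 239 and 247 CPM in siNC libraries. Its 95% interval for the log2 fold change, -0.12 to 0.05, does not reach the value of UHRF1, though the difference between the genes was not tested. CHAF1A and CHAF1B, subunits of the histone chaperone CAF-1, had log2 fold changes of -0.07 and 0.02. The fork protection genes CLSPN and TIPIN had -0.05 and -0.003, and TIMELESS had 0.11 with all siC1QBP libraries above all siNC libraries (78.5, 74.9 and 72.1 CPM in siC1QBP, against 68.3, 70.9 and 69.7 CPM in siNC; edgeR adjusted p = 0.187).

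Fold changes followed gene length across the whole table, and this touches the members. In the quintile of tested genes with the shortest exonic length (median 1428 bases), 11.4% were called lower, and in the longest quintile (median 10215 bases) 3.19% were. Among the members, 4 of 5 in the shortest quintile were called lower (PCNA, POLE4, RPA2 and SLBP), then 5 of 21, 5 of 16, 2 of 15 and 0 of 3 in the longest, against 11.6%, 7.82%, 5.18% and 3.19% of all tested genes in those last 4 quintiles. With each library's trend in length removed, 12 of 60 members were called lower, when 7.88% of all tested genes were. RPA2, PCNA, RFC3 and CCNE1 lost their calls in that fit (edgeR adjusted p = 0.138, 0.0658, 0.0768 and 0.0634). The other 12 kept theirs, namely CCND1, MCM2, FEN1, RPA3, UHRF1, SLBP, MCM4, MCM5, MCM7, POLD2, POLE4 and CDK2. Replicate 1 of siC1QBP was the lowest siC1QBP library in 10 called members with a median length of 2514 bases and the highest in 4 with a median of 4866 bases. Without it, 16 members were called lower, when 9.2% of all tested genes were. Of these 16 members, 14 were among the 16 called with all libraries.

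**Figure D3:**
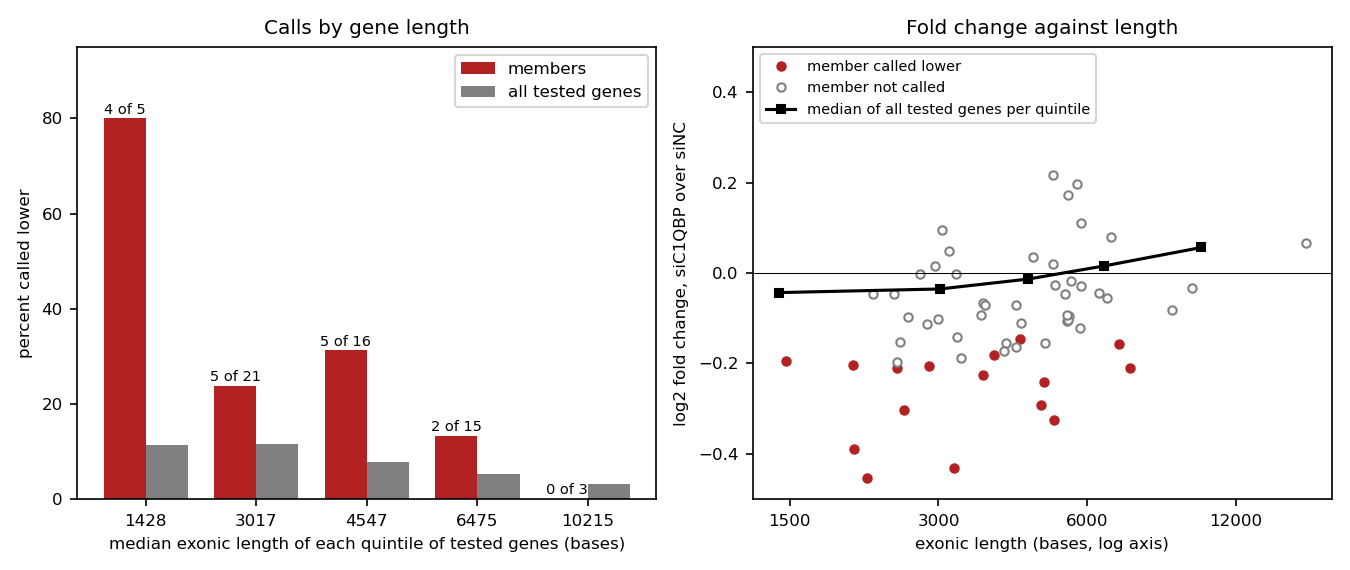
Left, the percent called lower among members (red, counts above the bars) and among all tested genes (grey) in quintiles of tested genes by exonic length, labelled by the median length of the quintile; right, each member's log2 fold change against its length on a log axis, with the median of all tested genes per quintile as black squares. The share called lower among all tested genes runs from 11.4% in the shortest quintile to 3.19% in the longest, and the members' bars are above the grey ones in the first 4 quintiles.

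Other genes of replication and G1/S control were read from a list of 70 that are not members, of which 69 passed the filter. Of these, 8 were called lower (11.6%, against 7.84% of all tested genes) and 4 higher (5.8%, against 6.47%). The S-phase cyclin CCNA2 fell to 142 ± 11.8 CPM in siC1QBP, against 164 ± 6.22 CPM in siNC (log2 fold change -0.22; edgeR adjusted p = 0.0162). The topoisomerase TOP2A fell (-0.19; edgeR adjusted p = 0.00649), while TOP1, which relaxes DNA ahead of the fork, rose (0.17; 0.0269). ASF1B, a histone chaperone, fell (-0.24; 0.00728), while NASP, another histone chaperone, rose (0.18; 0.0203). The checkpoint kinase CHEK1 fell by 0.17 on the log2 scale (edgeR adjusted p = 0.0329), the checkpoint clamp subunit RAD1 fell by 0.23 (0.0107), and CHTF8, of an alternative clamp loader, fell by 0.19 (0.0206). CHTF8 was 1 of 8 replisome and clamp loading genes on the list, of which 3 had a negative log2 fold change and 5 a positive one. Among them CHTF18, chosen after its value was seen, had 0.26 and was not called (edgeR adjusted p = 0.0587, overlapping groups). RAD1 shares 482 exonic bases with the opposite-strand gene BRIX1, CCNA2 shares 254 with EXOSC9, CHTF8 shares 365 with HAS3 and CHEK1 shares 80 with the same-strand gene STT3A, so reads of the partner may be counted in these values.

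Some of these calls ended under other settings. With the length trend removed, CCNA2 (edgeR adjusted p = 0.0790) and CHTF8 (0.0542) were not called, and CHEK1 (0.0605) was not when TMM scaling was left out. Without siNC replicate 2, CCNA2 (edgeR adjusted p = 0.104), TOP1 (0.143), NASP (0.146), CHEK1 (0.128), RAD1 (0.0522) and CHTF8 (0.123) were not called. CCNA2, CHEK1, RAD1 and CHTF8 were not called without siC1QBP replicate 2 either (0.0844, 0.137, 0.0546 and 0.0727). TOP1, NASP, CHEK1 and CHTF8 lost theirs without siC1QBP replicate 3 (0.0763, 0.0652, 0.0741 and 0.0606). TOP1, NASP and CHEK1 lost theirs without siNC replicate 3 (0.0837, 0.0902 and 0.0924), and TOP1 and CHEK1 without siNC replicate 1 (0.0567 and 0.0514). The origin firing genes had 0 calls among 9 by edgeR and DESeq2 and 1 lower by limma-voom, which was not MCMBP. At an unadjusted p under 0.05 in edgeR, 3 were lower and 0 higher, where 2373 of all 15530 tested genes were lower and 2126 higher. MCMBP, which binds MCM complexes, averaged 141 ± 3.39 CPM in siC1QBP and 154 ± 0.369 CPM in siNC (edgeR adjusted p = 0.0585). It was called lower with the replicate block (edgeR adjusted p = 0.0259) and with the length trend removed (0.0319). It was also called lower without siC1QBP replicate 1 (0.0146) and with replicates 2 and 3 alone (0.00424). The pocket proteins and remaining E2F and DP genes had 0 calls among 10 by edgeR, DESeq2 and limma-voom. In edgeR at an unadjusted p under 0.05, 1 was lower and 2 were higher. TFDP1, the partner of E2F1, averaged 205 ± 4.35 CPM in siC1QBP and 208 ± 7.52 CPM in siNC. RBL2, a pocket protein, E2F5, and E2F7, a repressive E2F, were chosen after their values were seen. Of the 10 genes, 8 had a negative log2 fold change and 2, RBL2 and E2F7, a positive one. E2F5 averaged 12.1 ± 0.71 CPM in siC1QBP and 14.8 ± 0.167 CPM in siNC, with no overlap. Its log2 fold change was -0.29 (edgeR adjusted p = 0.0537), and it shares 969 exonic bases with the opposite-strand gene C8orf59. RBL2 averaged 45.2 ± 1.71 CPM in siC1QBP and 39.5 ± 2.07 CPM in siNC (log2 fold change 0.20, edgeR adjusted p = 0.0504). E2F7 averaged 161 ± 6.07 CPM in siC1QBP and 146.7 ± 4.46 CPM in siNC (0.13, edgeR adjusted p = 0.0631). The groups did not overlap in either gene. RBL2 shares 610 of its 7320 exonic bases with the opposite-strand gene AKTIP. Of these 10 genes, 2 were called higher with library size as the only scaling, with the 10 CPM filter, with protein-coding genes only and with replicates 2 and 3 alone, 1 higher without siC1QBP replicate 1, and 1 was called lower with the length trend removed. With the replicate block, 2 of the 10 were called higher and 1 lower.

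Of the 5 other G1/S cyclins and kinases tested, 1 was called lower (CCNA2) and 1 higher (CDK6), and of the 7 CDK inhibitors 2 were called lower and 1 higher, where 7.84% of all tested genes were called lower and 6.47% higher. CDK6, the partner of cyclin D1, had 529.7, 468 and 477 CPM in siC1QBP libraries, against 380.3, 371 and 373 CPM in siNC libraries (log2 fold change 0.39, SE 0.05; edgeR adjusted p = 6.32e-05). Its rise stood beside the fall of CCND1, and no library of one group reached the other in either gene. CDK4, CDKN1A, CDKN1B, CDKN2D and RB1 were chosen after their values were seen. CDK4, the other partner, averaged 75.8 ± 3.30 CPM in siC1QBP and 82.3 ± 1.94 CPM in siNC and was not called (log2 fold change -0.12, edgeR adjusted p = 0.148). It shares 1369 of its 3168 exonic bases with the opposite-strand gene TSPAN31, so its value is uncertain. Of the 4 inhibitors of CDK4 and CDK6 on the list, CDKN2A, CDKN2B and CDKN2C were called and CDKN2D was not (log2 fold change -0.34; edgeR adjusted p = 0.198; the groups overlapped). CDKN2C had 24.6, 26.8 and 25.1 CPM in siC1QBP libraries, against 36.6, 38.8 and 36.1 CPM in siNC libraries, and CDKN2A had 94.1, 108 and 107 CPM in siC1QBP libraries, against 121, 143 and 148 CPM in siNC libraries. Counts are by gene, so different transcripts of CDKN2A cannot be told apart. CDKN2A also shares 341 of its 4329 exonic bases with the opposite-strand gene CDKN2B-AS1, which averaged 64.5 counts per library against 2233 for CDKN2A. CDKN2B had 97.8, 97.5 and 103 CPM in siC1QBP libraries, against 74.3, 77.2 and 80.3 CPM in siNC libraries. Thus CDKN2C and CDKN2A fell (log2 fold changes -0.54 and -0.41; edgeR adjusted p = 0.000105 and 0.000933) and CDKN2B rose (0.37; edgeR adjusted p = 0.000230), and these calls and that of CDK6 held under all 18 alternatives. CDKN1A and CDKN1B, which inhibit CDK2, were not called (-0.09 and -0.15; edgeR adjusted p = 0.297 and 0.0766).

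**Figure D4:**
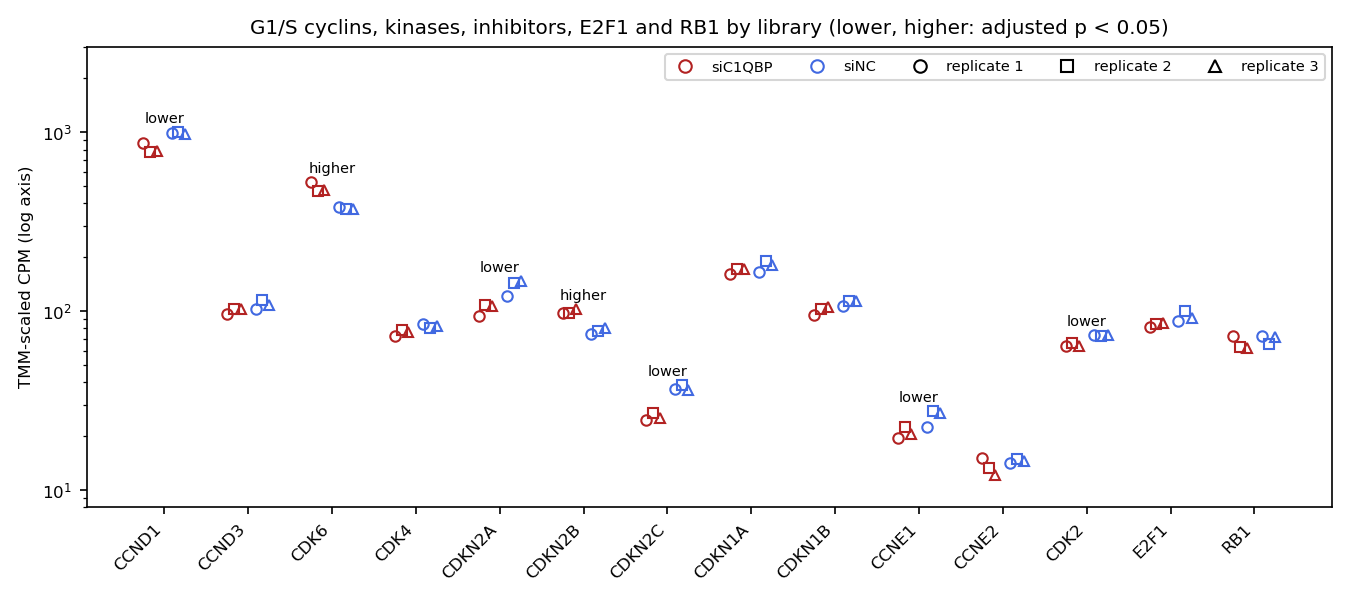
TMM-scaled CPM (log axis) of cyclins, kinases, inhibitors, E2F1 and RB1 in each library, with siC1QBP in red at the left of each gene and siNC in blue at the right; symbols are replicates, and "lower" or "higher" marks an edgeR adjusted p under 0.05. CCND1 lies lower and CDK6 higher in the siC1QBP libraries, with no overlap in either.

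Under the 18 alternative processing choices, between 6 and 22 members were called lower and 0 higher, DESeq2 and limma-voom included. SLBP, CCND1, UHRF1, RPA3, MCM2 and FEN1 were called lower under every one of them, with SLBP between -0.43 and -0.31 on the log2 scale. The share of members called lower was above the share of all tested genes called lower under each of the 18 alternatives, for example 6 of 60 against 3.64% without siNC replicate 2.

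**Figure D5:**
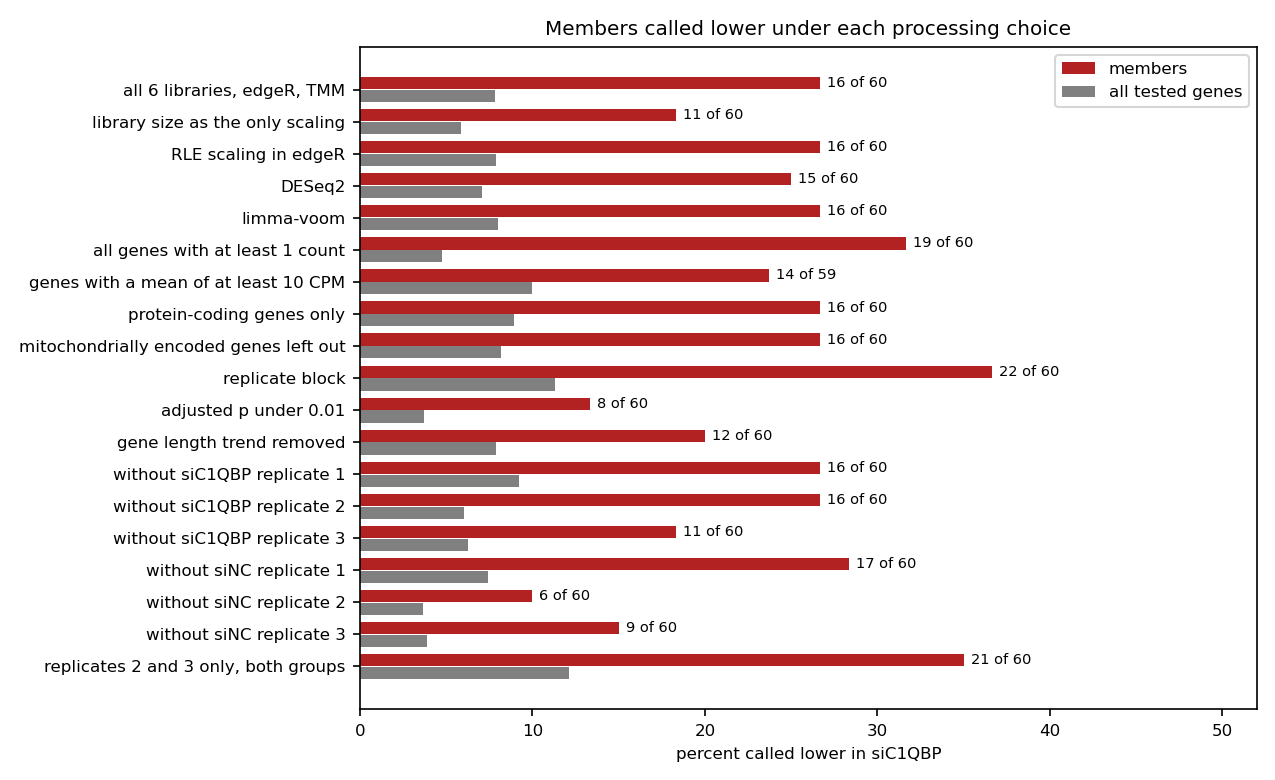
Percent called lower in siC1QBP among the members (red, counts beside the bars) and among all tested genes (grey) under the processing used here (top) and 18 alternatives. The members' bar is the longer one in each row, and the shortest, 6 of 60, is the fit without siNC replicate 2.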

How the data were processed

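RNA was sequenced from HuCCT1 cells with libraries made with a directional kit, per the labels' protocols. The authors deposited raw gene counts, with gene names, positions and exonic lengths that match GENCODE 29; the build is hg38 per the submitters' processing notes, and no source used here names the aligner, counter or strand setting. The members and lists were chosen with earlier results of these data known. Genes were taken by name, and 28 members share exonic bases with another gene. Genes passing edgeR's filterByExpr were fitted by group over all 6 libraries with edgeR's quasi-likelihood test (edgeR 4.0.16, R 4.3.3, TMM scaling), with Benjamini-Hochberg adjustment over 15530 genes; a gene was called at an adjusted p under 0.05. CPM uses TMM-scaled library sizes, and a level per kilobase divides it by exonic length. A count of 3 in a library equals 0.147 to 0.175 CPM. With 3 libraries per group, an exact permutation test of one gene cannot go below p = 0.1. Intervals are 95% intervals from the same fit. By rule, the named genes were the siRNA target, all members, the companion genes that were called, and the most abundant gene of each companion heading with no call. Outside the rule, CHTF18, RBL2, E2F5, E2F7, CDK4, CDKN1A, CDKN1B, CDKN2D and RB1 were named after their values were seen. The alternatives were other scalings, DESeq2 1.42.0, limma-voom (limma 3.58.1), other filters, a threshold of 0.01, a replicate block, a length trend (lowess span 0.3) removed, and each library left out. No libraries were duplicates of each other: the lowest chi-square per degree of freedom between a pair was 2.09. Promoters came from RefSeq (GRCh38.p14).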

Additional observations from a re-analysis of the deposited data

How the results depend on the processing

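Of 1349 single-gene values for the 75 genes named by rule under 18 alternatives, 1252 kept their side of the threshold, 74 lost a call, 23 gained one and 0 called values changed sign. Among the 1252, 34 values changed sign in genes that were called in neither fit. The 18th alternative, replicates 2 and 3 of both groups alone, was chosen after seeing the data. Over all tested genes, 2222 calls became 1057 at an adjusted p under 0.01 and 1105 to 2583 with a library left out. Members called lower are given here with the percent of all tested genes called lower in the same fit. They were 16 with all libraries (7.84%) and 8 at 0.01 (3.73%). With a library left out, they ranged from 6 without siNC replicate 2 (3.64%) and 9 without siNC replicate 3 (3.87%) to 17 without siNC replicate 1 (7.43%). Members called higher were 0 throughout. Companion genes called lower, 8 with all libraries, were 14 with the replicate block, 4 at 0.01, 15 with replicates 2 and 3 alone and 4 to 12 with a library left out. Companion genes called higher, 4 with all libraries, were 7 with library size as the only scaling, 8 with the block, 2 at 0.01, 8 with replicates 2 and 3 alone and 2 to 6 with a library left out. The stricter threshold lowers these counts by construction, and for the others the cause was not tested. Library size as the only scaling gave 908 genes lower and 1253 higher, against 1217 and 1005 with TMM, and 11 members lower; CCNE1, CDK2, MCM7, RFC3 and RPA2 lost their calls (edgeR adjusted p = 0.0560, 0.0536, 0.0719, 0.0706 and 0.0501). With genes under 10 CPM left out, CCNE1 and RFC3 lost theirs (0.0540 and 0.0551). Deviations of same-numbered libraries correlated at 0.0433, 0.0330 and -0.00941. For siC1QBP replicates 1 and 2 the same-numbered siNC library gave the highest value, and siC1QBP replicate 3 correlated best with siNC replicate 2 (0.0213). All these values are near 0, so whether the replicate numbers pair the libraries cannot be told from them. The replicate block gave 3092 calls over all genes and 22 members lower, when 11.3% of all tested genes were called lower. Depth limited E2F2 most among the members, with means of 6.11 CPM (siC1QBP) and 6.51 CPM (siNC).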
